A study of Mus musculus with 3 samples.

Results

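The intervals described here are the isolated peaks that were called in the first of 2 YY1 ChIP-seq samples and not in the second. A peak of replicate 1 belonged to the set when it lay on chromosomes 1 to 19, overlapped no replicate 2 peak by as much as 1 bp, and had no other replicate 1 peak within less than 500 bp of its edges. This held for 1792 of the 3691 replicate 1 intervals, or 48.6% of that list. They are called replicate 1-only intervals below. Of the 3438 autosomal replicate 1 intervals 1979 (57.6%) met no replicate 2 interval, and 187 of these were left out because another replicate 1 interval lay under 500 bp away. Among the 3153 autosomal intervals with the same isolation, 56.8% were replicate 1-only, and the other 1361, which overlapped replicate 2, served for comparison as isolated shared intervals. Because overlap with replicate 2 chose the set, absence from that list is a property of the choice and not a finding.

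Both ChIP samples came from mouse embryonic stem cells of strain C57BL/6 carrying a transgene in which Nkx2.5, a homeodomain factor of early heart cells, drives a green fluorescent reporter. The cells were differentiated as embryoid bodies to day 6, the fluorescent cardiac progenitor cells were sorted separately for each sample, and chromatin was precipitated with an anti-YY1 antibody. The series also has 1 input sample, which was not analysed here. The cells are defined by activity of the reporter after differentiation in culture, and interval lists carry no expression values against which that label could be checked. Replicate 1 held 3691 intervals and replicate 2 held 115109, or 31.2 times as many. The lists give no read totals, so the depth of each call is unknown, and an interval missing from a list cannot be called unbound.

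YY1 is a zinc-finger protein that binds DNA in a sequence-specific manner and can activate or repress transcription, depending on its partners. It is found at many promoters and enhancers and takes part in contacts between them, and it is required in early mouse development. In ChIP-seq, DNA fragments bound by the protein are sequenced, and a peak caller marks the places where reads pile up. Calls are usually compared between samples to see which places recur.

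The replicate 1-only intervals were spread over all 19 autosomes. Their number ran from 33 on chromosome 19 to 149 on chromosome 1, and their density from 0.568 per Mb on chromosome 19 to 0.875 per Mb on chromosome 6, against 0.743 per Mb over all autosomes. Among isolated intervals their share was lowest on chromosome 19, with 50.8% (95% exact binomial interval 38.1 to 63.4%), and highest on chromosome 6, with 62.1% (55.1 to 68.8%). These intervals overlap, so the 2 extremes were not separated beyond counting error. Binomial intervals here and below cover counting error only, and intervals of 1 list are not replicates, so no test was run across them.

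Along the chromosomes the replicate 1-only intervals were nearly evenly placed, whereas the isolated shared intervals were most frequent in the last parts. Each chromosome was cut into 10 equal parts between its first and last interval, starting from the end where the coordinates begin. The replicate 1-only intervals numbered 153 to 199 in each part, with 195 in the first and 189 in the last. The shared intervals numbered 125 in the first part and 100 to 154 over the first 8 parts, with no steady rise. There were 169 in the ninth part and 204 in the last. The share of replicate 1-only intervals was accordingly 60.9% (55.4 to 66.3%) in the first part and 51.1% (45.4 to 56.8%) in the fourth. It was 65.9% (60.2 to 71.2%) in the fifth and 48.1% (43.1 to 53.2%) in the last. Replicate 2 itself held 9373 intervals in the first part and 13872 in the last, so the number of calls available to meet moved with the share, and its part in the result was not tested.

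Most of the replicate 1-only intervals were somewhat under or about 100 bp wide. Their median width was 87.5 bp (interquartile range 70 to 101 bp), against 68 bp (51 to 93 bp) for the isolated shared intervals. The band from 90 to 109 bp held 38.4% of the replicate 1-only intervals and 16.2% of the shared ones, and the band from 40 to 59 bp held 15.3% and 38.7%. Counts fell off sharply in both sets just above 106 bp, at a step located from the replicate 1-only counts. At 103 to 107 bp there were 188 replicate 1-only intervals and at 108 to 112 bp there were 34, and the shared intervals fell from 58 to 22 over the same step. Wider than 107 bp were 174 replicate 1-only intervals (9.71%) and 161 shared ones (11.8%). At the narrow end 50 of them were exactly 42 bp wide, as were 58 shared intervals, and this was the commonest width of the shared set. What sets these widths was not tested.

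**Figure D1:**
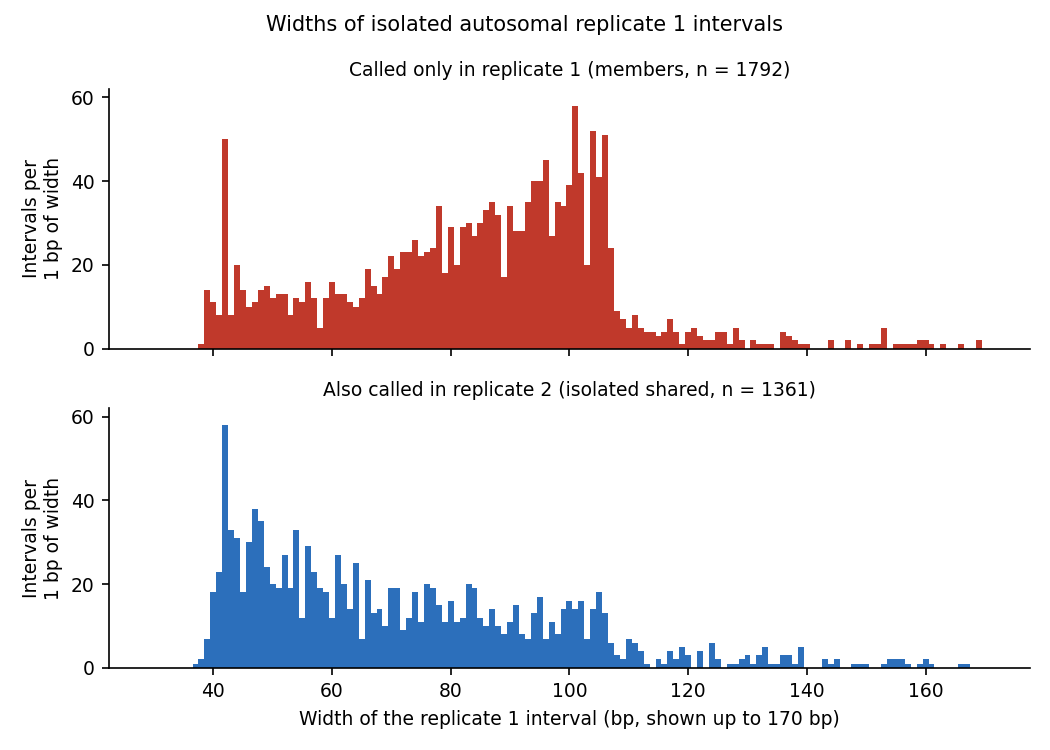
Number of isolated autosomal replicate 1 intervals at each width in bp, for the 1792 called only in replicate 1 (upper panel) and the 1361 also called in replicate 2 (lower panel), with wider intervals than 170 bp not drawn. The replicate 1-only intervals pile up toward 106 bp and drop sharply over 107 and 108 bp, while the shared intervals are most frequent near 42 bp.

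The share of replicate 1-only intervals changed with width. It was 60% (38.7 to 78.9%) for the 25 isolated intervals of 30 to 39 bp, 34.3% (30.04 to 38.8%) at 40 to 49 bp, 60.5% (55.4 to 65.4%) at 70 to 79 bp, 75.9% (71.7 to 79.8%) at 100 to 109 bp, and 45.3% (32.8 to 58.3%) at 200 bp and over. Intervals of 40 to 59 bp were thus those most often called in both sorts, and those of 90 to 109 bp the least often.

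By the MACS score, the value that the peak caller of the authors gave each interval and that ranks intervals within a list, the replicate 1-only intervals were close to the middle of their list and below the shared ones. The median score was 75.3 (interquartile range 65.6 to 84.2), against 77.3 (68.0 to 96.4) for the whole replicate 1 list and 84.5 (74.3 to 114) for isolated shared intervals. A score of 100 or more was held by 238 of the 1792 (13.3%) and by 465 of the 1361 shared intervals (34.2%), and a score of 200 or more by 9 and by 50. Scores under 60, near the lowest score of 50.08, were held by 298 replicate 1-only intervals (16.6%) and by 124 shared ones (9.11%). No replicate 1-only interval scored above 318.99, while 23 isolated shared intervals did.

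Width and score were tied to each other within the set. Replicate 1-only intervals 40 to 49 bp wide had a median score of 116, those 60 to 69 bp wide of 77.3, and those 100 to 109 bp wide of 69.1. Above that the order turned, and the 29 intervals of 200 bp or more had a median of 140. Many intervals had exactly the same score as another, 1466 of 1792 (81.8%), and at the commonest widths some scores recurred often. Distinct scores numbered 13 among the replicate 1-only intervals of 106 bp, and 16 each among those of 104 and of 101 bp. Of the 51 replicate 1-only intervals 106 bp wide, 17 scored 69.06 and 11 scored 76.21. Of the 52 that were 104 bp wide, 13 scored 69.47 and 15 scored 76.62, and of the 58 at 101 bp, 14 scored 70.09 and 12 scored 77.25. Across these 3 widths the common scores were thus slightly lower where the interval was wider. Other common scores stayed the same over a range of widths. The score of 77.33 was held by 57 replicate 1-only intervals of 53 to 80 bp, and 84.52 by 35 of 54 to 72 bp. Part of the isolated shared intervals had these same values. One of the 4 commonest replicate 1-only scores of its width was held by 8 of the 13 shared and 39 of the 51 replicate 1-only intervals at 106 bp, and by 2 of the 7 shared and 34 of the 45 replicate 1-only intervals at 96 bp. At 42 bp it was 33 of the 58 shared and 28 of the 50 replicate 1-only intervals. The 4 scores were picked from the replicate 1-only intervals, which raises their count there, so the 2 sets cannot be compared on it.

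**Figure D2:**
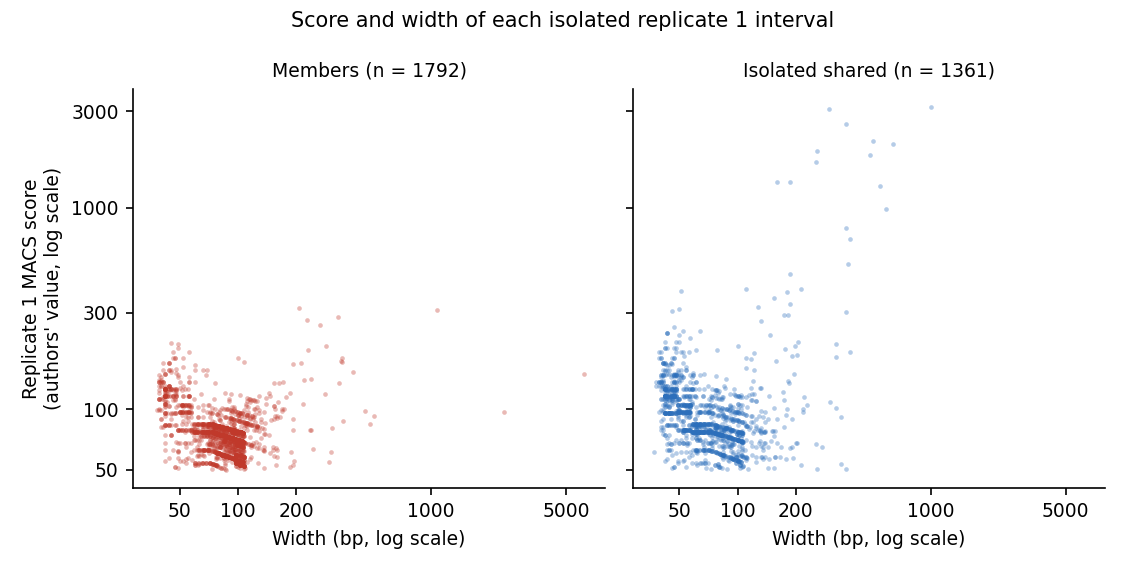
Replicate 1 MACS score against width for each interval, both on log scales, with the 1792 replicate 1-only intervals on the left and the 1361 isolated shared intervals on the right. Scores tend to be lower at greater width up to about 107 bp in both panels, and some scores recur over a range of widths. The points above a score of 319 are found among the shared intervals.

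Widths were also compared within ranges of score, and scores within ranges of width. In the lowest quartile of score (50.08 to 68.54) the median width was 94 bp for replicate 1-only and 85 bp for shared intervals. It was 92 and 80 bp in the next quartile, 82 and 64 bp in the one after, and 51 bp in both sets in the highest quartile (from 96.53). The median score of replicate 1-only minus that of shared intervals was -8.24 to -1.64 within quartiles of width, and mostly smaller within narrower bands. It was 0 at 40 to 49 and at 50 to 59 bp, between -2.69 and -1.24 in the bands of 10 bp from 60 to 109 bp, 0.70 at 110 to 119 bp and 3.97 at 120 to 149 bp. In the thinly filled bands at the ends it was -16.2 at 30 to 39 bp, -8.82 at 150 to 199 bp and -52.0 at 200 bp and over. From 40 to 109 bp, where most intervals lay, little of the difference in median score was left at a given width. When both were cut together, 79.2% (74.1 to 83.8%) of the isolated intervals 82 to 99 bp wide in the second quartile of score were replicate 1-only. The lowest share was 23.7% (14.7 to 34.8%), for intervals 59 to 81 bp wide in the highest quartile of score. Among intervals wider than 58 bp the share was thus lower at the highest scores, also at a given width. At 59 to 81 bp it was 65.3% in the lowest quartile of score. At 82 to 99 bp it was 76.3% in the lowest and 36.5% in the highest quartile, and at 100 bp and over 71.9% and 42.5%. Narrow intervals, 37 to 58 bp wide, gave 32.0 to 41.3% whatever their score quartile.

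The 10 highest-scoring replicate 1-only intervals ranked between 31 and 81 in the replicate 1 list, and 3 of them lay within 23.6 kb on chromosome 6. Coordinates are those of mm9, counted from 1. The first, on chromosome 6 from 47689898 to 47690105, scored 318.99. The others in that stretch, from 47698451 to 47698715 and from 47713197 to 47713481, scored 260.95 and 205.77. On chromosome 17 the interval from 13744968 to 13746042 scored 312.14 and was 1075 bp wide. Intervals on chromosome 3 (152472200 to 152472530), chromosome 16 (90178078 to 90178306) and chromosome 5 (54727237 to 54727467) scored 287.43, 275.34 and 197.06 with widths of 331, 229 and 231 bp. The remaining ones were only 45 to 49 bp wide. They were found on chromosome 3 (123648955 to 123648999, score 212.71), chromosome 19 (24456794 to 24456842, 210.71) and chromosome 13 (65889656 to 65889704, 200.11). High scores were thus held both by intervals over 200 bp and by intervals under 50 bp, with none of the common width near 100 bp among the 10. Their nearest replicate 2 intervals were 3.58 to 36.0 kb away.

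On the other chromosomes the top replicate 1-only interval scored between 126.18 and 192.88. The lowest of these maxima belonged to chromosome 1, the chromosome with the most replicate 1-only intervals, where 2 intervals shared it (that from 35882679 to 35882720 comes first). Chromosome 11 had the highest (112663861 to 112663906, 46 bp), and this interval had a replicate 2 interval 675 bp away. The top intervals of chromosome 2 (20821489 to 20821834, score 179.81), chromosome 8 (78085549 to 78085648, 178.69) and chromosome 18 (88108528 to 88108579, 178.44) came next. The scores were 170.17 on chromosome 7 (19416022 to 19416065) and chromosome 10 (34635046 to 34635089), and 165.84 on chromosome 9 (73965377 to 73965436). On chromosome 15 (79804373 to 79804420) the top score was 158.2, on chromosome 12 (106207904 to 106207972) and chromosome 14 (76431844 to 76431887) 157.18, and on chromosome 4 (132879185 to 132879224) 140.01. Of the top intervals of these 12 chromosomes, 10 were no wider than 69 bp.

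The widest replicate 1-only interval by far began at the first base called on chromosome 9, from 3000004 to 3006180 (6177 bp), and scored only 149.43. It was followed by intervals of 2383 bp on chromosome 17 (39981991 to 39984373, score 97.35), of 1075 bp on the same chromosome, of 509 bp on chromosome 6 (3150765 to 3151273, score 92.42) and of 484 bp on chromosome 3 (5860345 to 5860828, score 84.32). Of these 5, the 1075 bp interval alone was also among the 10 highest scores. The narrowest were 38 bp on chromosome 3 (29378501 to 29378538, score 98.79) and 14 intervals of 39 bp, of which those first in chromosome order were on chromosome 1 (78483610 to 78483648, score 112.59) and chromosome 5 (18969335 to 18969373, score 136.38).

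In position, overlap of an isolated interval with replicate 2 was mostly clear-cut. It still depended on how many replicate 2 intervals were kept. With the 50% of replicate 2 of highest score, 1976 of the 3153 isolated intervals were replicate 1-only in place of 1792 (56.8%). Dropping replicate 2 intervals can only raise this number, so the direction was fixed in advance. The smallest overlap of an isolated shared interval was 23 bp, on chromosome 2 from 164000025 to 164000066, and the median was 62 bp. In 995 of the 1361 shared intervals (73.1%) the whole replicate 1 interval was covered by the replicate 2 interval. The closest replicate 1-only interval, on chromosome 7 from 28935380 to 28935481, was 15 bp from replicate 2 and scored 95.55. It was followed by one at 16 bp on chromosome 6 (19886797 to 19886870, score 83.93), one at 34 bp on chromosome 4 (23949171 to 23949274, score 54.81), one at 43 bp on chromosome 5 (139650734 to 139650793, score 54.02) and one at 50 bp on chromosome 8 (126109634 to 126109733, score 51.82). Only 12 replicate 1-only intervals had replicate 2 within 100 bp, so few intervals sat near the limit of the rule. At the other limit, the closest replicate 1 neighbours kept were a pair on chromosome 12 that were 516 bp apart (15390790 to 15390865, score 83.36, and 15391382 to 15391487, score 76.21). Of the pairs left out, the one nearest to the limit was 493 bp apart on chromosome 7 (71628480 to 71628843, score 106.59, and 71629337 to 71629541, score 86.98).

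Replicate 2 intervals were usually some way off. The median distance from a replicate 1-only interval to the nearest replicate 2 interval was 10.5 kb (interquartile range 4.77 to 20.3 kb, 95% order-statistic interval of the median 9.80 to 11.1 kb). At under 500 bp the counts were small, with 4 intervals under 50 bp from replicate 2, 8 at 50 to 100 bp, 13 at 100 to 200 bp and 30 at 200 to 500 bp. Per kb of distance, the number was 80 under 50 bp, 160 at 50 to 100 bp and 130 at 100 to 200 bp. It was 100 at 200 to 500 bp and 80 at 500 to 1000 bp. Farther out the number per kb was 101 at 1 to 2 kb, 90 at 2 to 5 kb and 79.8 at 5 to 10 kb, then 46.5 at 10 to 20 kb. From 500 bp to 50 kb the width and score of replicate 1-only intervals hardly moved with that distance. Median widths were 79.5 to 90 bp and median scores 73.8 to 77.3 in the 6 classes of that range. Sparse classes outside it varied more, with medians of 51.5 bp and 94.1 for the 8 replicate 1-only intervals at 50 to 100 bp. The replicate 2 intervals nearest to them were ordinary members of their list, with a median score of 129 and a median width of 62 bp, against 129 and 61 bp for all 108971 autosomal replicate 2 intervals.

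**Figure D3:**
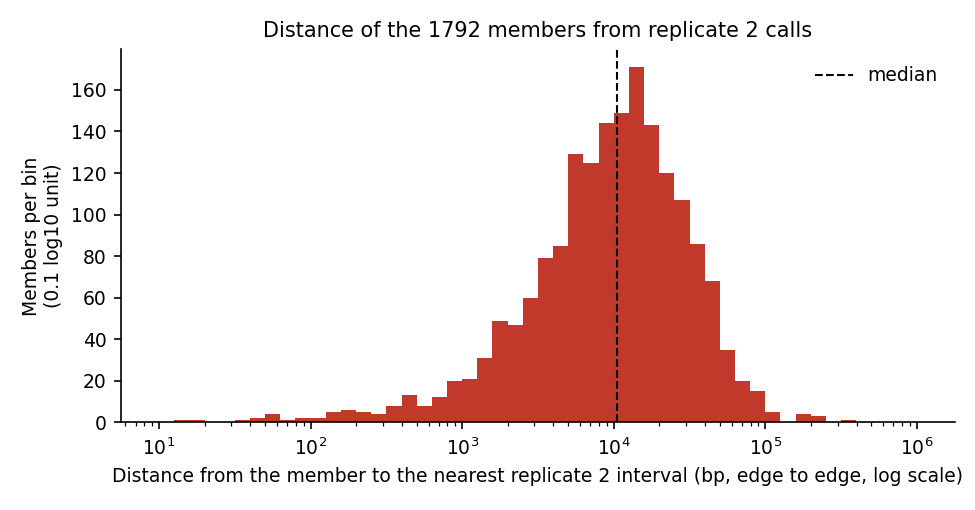
Distance in bp, on a log scale, from each of the 1792 replicate 1-only intervals to the nearest replicate 2 interval, with the median of 10.5 kb as a dashed line. The distances form a single hump, and only 95 intervals lie within 1 kb of a replicate 2 interval.

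Around replicate 1-only intervals replicate 2 was called less densely than around isolated shared intervals, also when the overlapping interval itself was not counted. A replicate 2 interval lay within 1 kb of 95 replicate 1-only intervals (5.30%, 4.31 to 6.44%) and of 213 shared ones (15.7%, 13.8 to 17.7%). Within 10 kb the shares were 48.3% (45.9 to 50.6%) and 66.9% (64.4 to 69.4%). Within 1 Mb on either side the median number of replicate 2 intervals was 84 (interquartile range 69 to 105) for replicate 1-only intervals and 97 (80 to 117) for shared ones. Since the rule itself used replicate 2 intervals, this is a description of the set.

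Put the other way, the replicate 1-only share of isolated intervals fell steadily with the number of replicate 2 intervals within 1 Mb. It was 72.9% (69.3 to 76.3%) where there were 13 to 69 of them, 61.9% (58.1 to 65.7%) at 70 to 83, 53.9% (49.9 to 57.9%) at 84 to 97, 52.1% (48.1 to 56.1%) at 98 to 115 and 42.4% (38.4 to 46.3%) at 116 to 209. The widths and scores of the replicate 1-only intervals were nearly the same in all 5 classes, with medians of 85 to 90 bp and of 74.5 to 76.2. The fall was present in each quartile of score. In the lowest quartile the share was 81.6% (75.3 to 86.8%) in the sparsest of the 5 classes and 55.8% (48.1 to 63.4%) in the densest, and in the highest quartile it was 43.8% (34.4 to 53.4%) and 26.3% (19.98 to 33.3%).

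**Figure D4:**
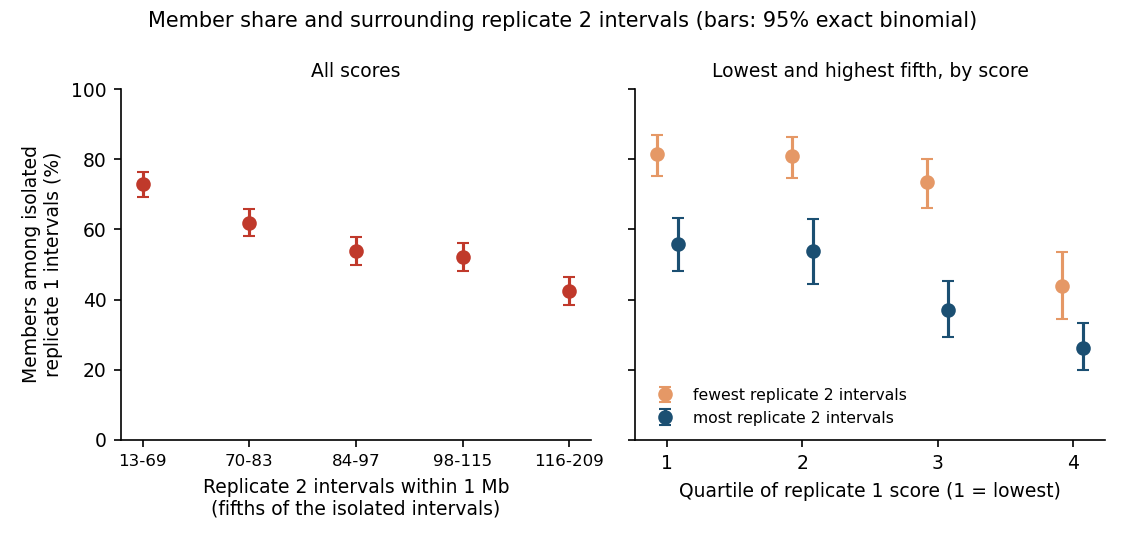
Percent of isolated autosomal replicate 1 intervals that were replicate 1-only, by the number of replicate 2 intervals within 1 Mb (left, 5 classes of similar size) and, for the sparsest and the densest class, by quartile of replicate 1 score (right), with 95% exact binomial intervals. The share falls from 72.9% to 42.4% from left to right and is lower in the densest class in each quartile of score.

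A few replicate 1-only intervals lay in long stretches with hardly any replicate 2 call. Replicate 2 was at least 100 kb away from 13 of them, or 0.725%. The farthest was on chromosome 7 from 16049958 to 16050054, at 354.7 kb, and another on the same chromosome (16179078 to 16179176) was 225.6 kb away. At 236.9 kb was an interval on chromosome 18 (3004758 to 3004946) and at 205.6 kb one on chromosome 4 (143602155 to 143602286), while the widest interval, on chromosome 9, was 195.9 kb away. Scores of all 13 ran from 52.2 to 149.43, the latter that of the widest, with a median of 72.6, near that of the whole set. The intervals on chromosomes 9 and 18 were near the lowest coordinates of their chromosomes.

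Although chosen for isolation at 500 bp, the replicate 1-only intervals had close neighbours in their own list more often than the isolated shared intervals did. Another replicate 1 interval lay between 500 bp and 5 kb away for 104 of the 1792 (5.80%, 4.77 to 6.99%) and for 21 of the 1361 (1.54%, 0.958 to 2.35%). That neighbour was itself absent from replicate 2 in 96 of the 104 cases and in 7 of the 21, where 57.6% of all autosomal replicate 1 intervals were absent. In 83 of the 104 cases it was another replicate 1-only interval, so that pairs of them count from both sides and the rule fixed their absence. At 50 kb the shares were closer, 17.5% (15.8 to 19.4%) and 13.3% (11.5 to 15.2%).

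Part of this closeness came from 3 chains, in which replicate 1 intervals followed each other with gaps of at most 10 kb and which held 5 or more replicate 1-only intervals each. Without the chains the share with a neighbour under 5 kb away was 4.58% (3.65 to 5.66%), and that of isolated shared intervals stayed at 1.54%. The chains were picked for close replicate 1-only intervals, so this fall follows from the choice. Of the 1769 replicate 1-only intervals outside these chains, 1668 had no other replicate 1 interval within 10 kb. No replicate 1 interval in the 3 chains was called in replicate 2. For their replicate 1-only intervals the rule fixed this, and the chains were picked for holding such intervals. Of all autosomal replicate 1 intervals, 57.6% met no replicate 2 interval.

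On chromosome 6 the first chain, from 47600728 to 47635500, was a regular series. It held 12 replicate 1 intervals in 9 places when those under 500 bp apart were counted as 1 place, and 6 of the intervals were replicate 1-only. The spacing from one place to the next was 4157 to 4492 bp, with a median of 4313.5 bp. Scores of its replicate 1-only intervals ran from 67.03 to 99.95 and widths from 124 to 350 bp, so all 6 were wider than the upper quartile of the whole set. The second chain began 52.4 kb further on, from 47687938 to 47722196, with 10 intervals in 9 places, 8 of them replicate 1-only. Apart from its first step of 1960 bp, its places were 4176 to 5548 bp apart, with a median over all steps of 4375 bp. It was the strongest stretch of the set, with scores of 119.44 to 318.99 (median 170.39) and widths of 208 to 345 bp. Replicate 2 had 3 intervals inside the first chain and 4 inside the second, all between the places called in replicate 1. The rule bars overlap with replicate 1-only intervals, so it fixed this placement in part. At least 411 bp separated the replicate 2 intervals from the replicate 1-only intervals of the second chain, and 1687 bp from those of the first.

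The chain on chromosome 7, from 71610888 to 71638732, was dense and irregular. It held 29 replicate 1 intervals within 27.8 kb, of which only 9 met the isolation rule, and no replicate 2 interval. Places were 786 to 4003 bp apart. Scores of the 9 were low, from 52.67 to 99.89 with a median of 56.96, and none of the 29 intervals scored above 129.78.

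**Figure D5:**
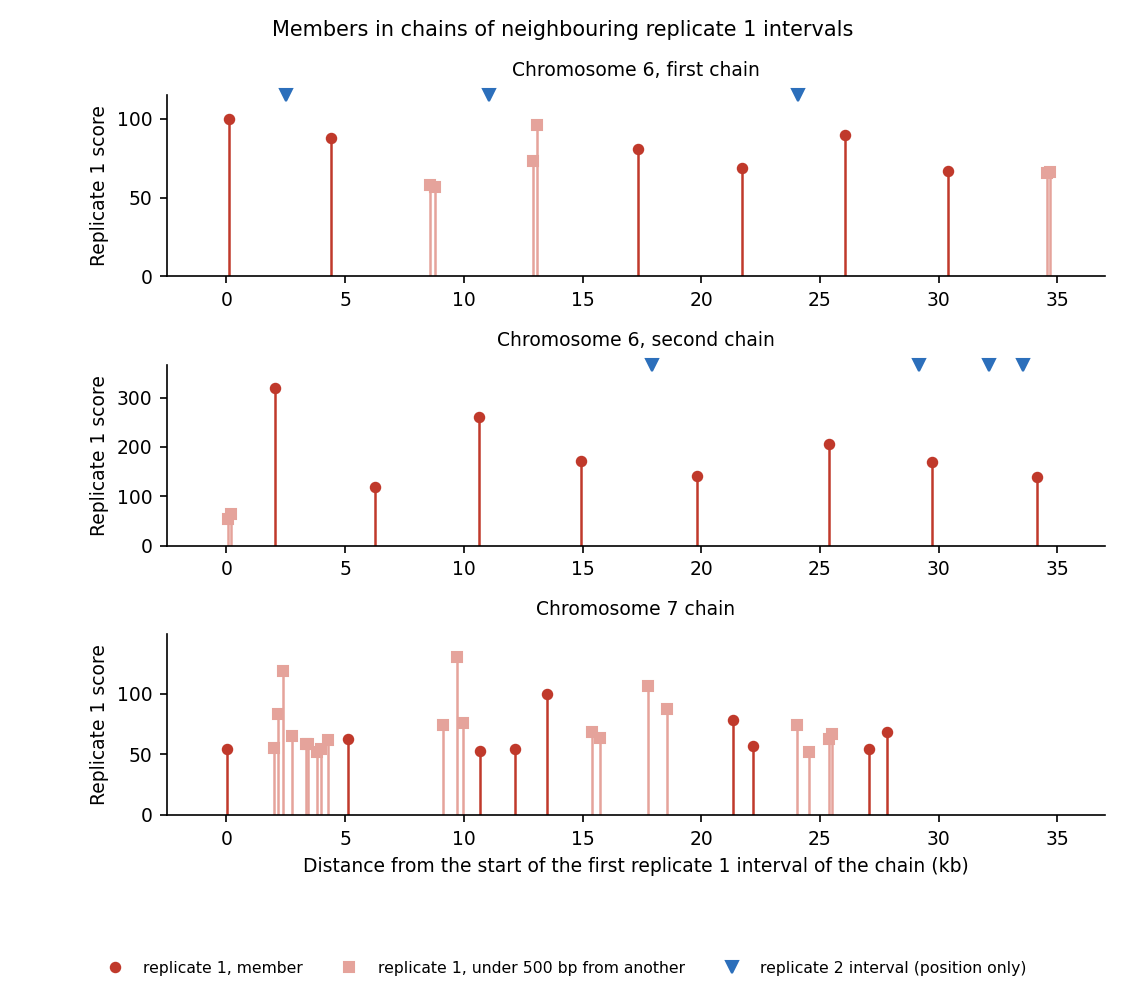
Replicate 1 score of each interval in the 3 chains against distance in kb from the start of the chain, with replicate 1-only intervals as dark circles, replicate 1 intervals under 500 bp from another as pale squares, and replicate 2 intervals as blue triangles at the top that show position alone. The chromosome 6 chains step at about 4.3 kb and the triangles fall between the steps, while the chromosome 7 chain has no replicate 2 interval. That no triangle meets a dark circle is fixed by the rule that chose the set.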

How the data were processed

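The data were 1 list of intervals for each of 2 YY1 ChIP samples. The authors called them as peaks with MACS in Galaxy, per the file headers, on build mm9, which the submitters' processing notes name. Aligner, MACS version and settings, use of the input and score formula: not given in the sources used here. Scores are the values the authors deposited, and they were compared within a list only. BED starts were taken to count from 0, so coordinates printed here count from 1. Distances are bases between edges. Shares have 95% exact (Clopper-Pearson) intervals, and medians 95% order-statistic intervals. Classification was tested on simulated lists, and the overlap was checked with bedtools 2.31.1. Named intervals are the 10 highest scores, the highest of each chromosome, the 5 widest, 3 narrowest, 5 farthest from and 5 nearest to replicate 2, and those beside each threshold. The chains were chosen after their values were seen, and the members and lists with earlier results of these data known. Sequences, the YY1 motif, gene starts and 6 gene lists were not analysed, since no mm9 sequence or annotation was used here. With 1 list for each sample, no test between samples was made. Software was matplotlib 3.10.9, pandas 2.3.3, SciPy 1.17.1, NumPy 2.4.6 and Python 3.11.15.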

Additional observations from a re-analysis of the deposited data

How the results depend on the processing

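Each of 9 results was recomputed under 9 alternatives. Of the 81 recomputed values, 67 stayed within the interval of the reported value, or within 1.5 times of a count. Only 3 results are differences that can change sign, and none of their 27 values did. With only the 50% of replicate 1 intervals of highest score, 744 intervals remained of 1792, with a median width of 78 bp, a median score of 90.5, a median distance to replicate 2 of 9210 bp, 52.4% with replicate 2 within 10 kb and 4.03% with a replicate 1 neighbour under 5 kb away; fewer intervals entered, and the score itself was selected. With the 50% of replicate 2 of highest score, the median distance was 17966 bp and 31.1% had replicate 2 within 10 kb, since fewer replicate 2 intervals were left, and the difference in median width was 15.0 bp in place of 19.5 bp, of which the cause was not tested. The share with a replicate 1 neighbour under 5 kb away follows the isolation distance by construction, and was 14.7% with none, 7.20% at 250 bp, 4.36% at 1000 bp and 0% at 10 kb; it was 4.58% without the 3 chains, an alternative chosen after seeing the data, as were this result and that of replicate 2 density. The alternatives for the motif and gene starts were not run. No replicate could be left out, since both lists define the set. No paired analysis was possible because there is 1 list for each sample and no second group of lists.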
